A study of Mus musculus with 1115 samples.

Results

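The genes described here are 58 named genes of G2 and mitosis, chosen by name from the known machinery of cell division, and all 58 occur among the 16839 genes of the deposited count table. The samples are 1115 single cells from the cortex of C57BL/6 mouse embryos that were electroporated in utero with a dual reporter plasmid and taken at E13.5. The plasmid carries red mRFP under the general CAG promoter and GFP under a promoter of Hes5, a target of Notch signalling. The group Hes5_GFP, 65.6% of the cells, was sorted as mRFP-positive and GFP-positive, and the group CAG_mRFP, 34.4%, as mRFP-positive and GFP-negative. All cells of both groups therefore carry the same plasmid, and the labels name no other allele or agent. The submitters also assigned each cell a class, a cluster and a cell cycle phase. By class, 57.04% were radial glia (RGCs), 17.1% intermediate progenitors (IPCs) and 25.8% excitatory neurons (ENs), and by phase 50.6% were in G1, 9.60% in S and 39.8% in G2M. Phase, class and cluster were assigned from transcripts of these same cells, so a level set out by phase, class or cluster is a description. Tests were run on such levels only for G2M IPCs against G2M RGCs, where the p-values carry that limit, and on cluster 4 against cluster 3 as a variant of it, which is read as a description.

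RGCs are the stem cells of the embryonic cortex, and they divide at the ventricular surface, where Notch signalling through Hes5 keeps them undifferentiated. IPCs arise from them, move away from that surface and divide to give neurons, whereas ENs have left the cell cycle. In G2 a dividing cell loads Cdk1 with cyclin B, and in mitosis it condenses its chromosomes, takes down the nuclear envelope, ties the kinetochores to the spindle, and then degrades cyclins through a ubiquitin ligase, the anaphase-promoting complex, whose activator is Cdc20. Many of these genes are known to share a promoter element, the cell cycle genes homology region (CHR), which the MuvB complex reads, often together with CCAAT boxes read by the factor NF-Y.

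Transcripts were read along their whole length with a modified Smart-seq2 protocol, which has no molecular identifiers, and levels are given as CPM, the counts of a gene per 1000000 counts summed over a group of cells. The median cell held 264021 counts, with 285093 in G2M RGCs and 377996 in G2M IPCs. One plate of 80 CAG_mRFP cells from day 3 stood apart with a median of 30740 counts per cell, and so did the 72 cells of cluster 7, with 97172 counts and 1168 genes per cell. Cells of 4 sort days serve as replicates, since the labels name no animals, and p-values therefore measure the spread between sort days only. Another 3 cells came from a further day and enter pooled values only. The RGC and IPC labels went with their markers in G2M cells, though the labels came from the same transcripts. The summed level of RGC markers by day was 5128 to 6169 CPM in G2M RGCs and 501.7 to 768.8 CPM in G2M IPCs. That of IPC markers was 129.005 to 330.5 CPM and 2044 to 2244 CPM in the same order. G2M IPCs also held EN markers, at the levels given below. Exons of 17 of the 58 genes overlap those of another gene, among them Nek6, Cdc20, Ube2c and Cdc25b, and whether counting used the strand is not given in the sources used here, so that reads of the overlapping partner cannot be told apart.

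The promoters of the genes that set the pattern below are shown first, because the 58 genes were followed as one group that peaks in one phase. Of the 58 genes, 49 matched an entry of the RefSeq promoter table on build GRCm38.p6, which holds 250 bases before and 50 bases after each start. The sequences printed are the 150 bases before the start, 5′ to 3′ on the strand of the gene, with capitals for a CHR, searched as TTTGAA or TTCGAA, or a CCAAT box, each on both strands. They lie at chr4:118437344-118437493 (minus strand) for Cdc20, chr13:100786487-100786636 (minus) for Ccnb1, chr9:70421555-70421704 (minus) for Ccnb2, chr7:122159285-122159434 (plus) for Plk1, chr2:164769779-164769928 (plus) for Ube2c, chr11:99024190-99024339 (minus) for Top2a, chr11:106999526-106999675 (minus) for Kpna2 and chr2:38511547-38511696 (plus) for Nek6. Positions are counted from the RefSeq start. In the gene models used for exon overlaps, the outermost start of Cdc20, Ccnb1, Ube2c, Kpna2 and Nek6 falls inside the printed stretch. Cdc20, Ccnb1, Ube2c and Kpna2 are shown as genes that separate cluster 3 from cluster 0, Ccnb2, Plk1 and Top2a as genes of the same phase with smaller differences there, and Nek6 as the gene whose pattern stood apart in IPCs.
Cdc20: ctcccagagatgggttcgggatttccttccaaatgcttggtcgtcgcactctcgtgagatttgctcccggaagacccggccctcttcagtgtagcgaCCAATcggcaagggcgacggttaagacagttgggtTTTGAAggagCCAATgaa
Ccnb1: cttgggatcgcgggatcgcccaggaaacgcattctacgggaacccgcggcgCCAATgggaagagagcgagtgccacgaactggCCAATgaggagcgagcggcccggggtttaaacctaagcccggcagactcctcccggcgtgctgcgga
Ccnb2: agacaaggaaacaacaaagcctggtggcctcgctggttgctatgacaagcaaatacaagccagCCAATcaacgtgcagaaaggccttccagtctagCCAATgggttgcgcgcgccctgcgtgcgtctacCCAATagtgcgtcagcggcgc
Ube2c: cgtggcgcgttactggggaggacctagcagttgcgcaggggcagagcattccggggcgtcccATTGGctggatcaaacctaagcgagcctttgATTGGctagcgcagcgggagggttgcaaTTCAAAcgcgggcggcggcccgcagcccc
Kpna2: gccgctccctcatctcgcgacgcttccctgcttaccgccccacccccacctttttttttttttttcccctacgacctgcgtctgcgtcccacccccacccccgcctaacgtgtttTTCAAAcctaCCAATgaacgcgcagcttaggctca
Top2a: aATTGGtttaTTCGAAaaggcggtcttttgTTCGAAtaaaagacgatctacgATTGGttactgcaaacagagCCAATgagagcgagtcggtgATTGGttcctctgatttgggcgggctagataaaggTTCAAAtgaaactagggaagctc
Plk1: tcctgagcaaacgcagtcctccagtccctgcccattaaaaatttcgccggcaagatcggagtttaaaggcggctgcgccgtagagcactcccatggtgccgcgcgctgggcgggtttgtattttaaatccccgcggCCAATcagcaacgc
Nek6: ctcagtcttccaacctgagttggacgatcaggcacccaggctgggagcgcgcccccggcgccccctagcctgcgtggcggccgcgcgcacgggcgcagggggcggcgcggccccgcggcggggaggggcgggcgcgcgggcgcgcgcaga

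Only the first entry of each gene symbol was searched. In the full window of 300 bases, 35 of the 49 promoters (71.4%) held a CHR match, against 19.4% of the 27025 first entries. At least 1 CCAAT match was found in 41 (83.7% against 37.9%), at least 2 in 31 (63.3% against 12.2%), and both kinds of motif in 33 (67.3% against 7.70%). Among the members, 1 CHR match overlapped a CCAAT match. Cdc20 had a CHR at position -18 from the start between CCAAT boxes at -53 and -8. In Top2a, 4 CHR matches and 6 CCAAT matches were found, whereas the window of Ccnb1 held CCAAT boxes at -99 and -67 and no match to these CHR letters. The CHR of Plk1 lay at 31 bases after the start, outside the printed stretch, and Nek6 had a single CCAAT match at -232, also outside it. Neither motif was matched in Birc5, Nusap1, Nuf2, Tacc3, G2e3 or Arhgef39. A match is a description of the letters in this window. Genes with both motifs and the 16 others had about the same fold between clusters 3 and 0, with medians of 2.12 and 2.21.

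All 58 genes were higher in G2M than in G1 RGCs, with a median fold of 8.19 over pooled cells, and 56 of 58 were higher in G2M than in G1 IPCs, with a median fold of 10.8. The summed level of the 58 genes was 5495 CPM in G1 RGCs, 11790 CPM in S RGCs and 30554 CPM in G2M RGCs. In IPCs the sums in the same order were 4965, 12694 and 26085 CPM, and G1 ENs held 1798 CPM. By day the sum ran from 3581 to 6432 CPM in G1 RGCs and from 22403 to 32738 CPM in G2M RGCs, so the phases did not overlap. Phases were called from transcripts of the same cells, by a method not given in the sources used here, so this order is not a finding about the genes. The spread among the members was wide, with 26 genes at a fold of at least 10 and 5 under 2 between G2M and G1 RGCs.

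The Cdk1 group had a median fold of 8.003 between G2M and G1 RGCs over 8 genes. Ccnb1, the B-type cyclin that drives entry into mitosis, was at 0.875, 13.3, 39.4 and 68.2 CPM in G1 RGCs on days 1 to 4, at 383.5, 173.8, 190.3 and 180.8 CPM in S RGCs, and at 896, 942, 1854 and 1654 CPM in G2M RGCs. Its phases did not overlap on any day, and days 3 and 4 were the higher in G2M. Ccnb1 had a pooled fold of 42.5 and Cdc25c, a phosphatase that switches Cdk1 on, a fold of 36.1. Cdk1 itself went from 134.01 CPM in G1 to 593.97 CPM in G2M RGCs, a fold of 4.43, and Cks1b, a small Cdk-binding protein, from 249.2 to 410.6 CPM. Cdc25b, the related phosphatase that acts at the start of mitosis, was the member of this group with another order in IPCs. It was at 264.2, 22.7 and 81.5 CPM in G1 IPCs on days 1, 3 and 4, and at 149.2, 76.5, 79.6 and 50.7 CPM in G2M IPCs on days 1 to 4. These overlap, and G1 IPCs varied by more than 10-fold between days, with 5 cells on day 1. In RGCs Cdc25b was at 20.4, 0, 7.19 and 52.1 CPM in G1 and at 86.5, 137.7, 78.2 and 74.5 CPM in G2M, without overlap.

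Among the 11 kinases and passenger proteins the median fold between G2M and G1 RGCs was 10.49. Plk1, the polo kinase of mitotic entry and spindle assembly, was at 0.12, 0, 12.6 and 31.9 CPM in G1 RGCs and at 447.1, 538.1, 609.6 and 477.4 CPM in G2M RGCs on days 1 to 4, well apart on each day. Aurka, a kinase of the spindle poles, went from 24.1 to 471.8 CPM in pooled cells, and Aurkb, the kinase of the chromosomal passenger complex, from 59 to 619.1 CPM. The spindle checkpoint kinases Bub1 and Ttk had folds of 6.27 and 7.22. The 7 centromere and kinetochore genes had a median fold of 7.77. Cenpf, a large protein of the outer kinetochore, went from 24.1 to 345.6 CPM, and Hjurp, the chaperone that deposits the centromeric histone Cenpa, only from 175.99 to 327.6 CPM. The 4 ubiquitin ligase genes were led by Ube2c, the ubiquitin-conjugating enzyme of the anaphase-promoting complex, with a fold of 40.4, and by Cdc20 with a fold of 17.4.

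The 12 spindle genes had a median fold of 10.4, with Nusap1, a microtubule-bundling protein, at 32.1, and Tpx2, which activates Aurka on the spindle, at 13.96. In the cytokinesis group Ect2, the exchange factor that starts furrow formation, had a fold of 12.6 and Anln, the scaffold anillin, a fold of 7.90. The 13 genes of chromosomes, nuclear envelope and nuclear transport had the lowest median fold of the 7 groups, 3.39. Within it Top2a, the topoisomerase that untangles sister chromatids, had a fold of 10.4, while Cbx5, a heterochromatin protein, and Anp32e, a histone chaperone, had folds of 1.30 and 1.495. Hmgb2, a chromatin protein of dividing cells, was at 217.9, 302.4, 747 and 609.7 CPM in G1 RGCs and at 1358, 1211, 1664 and 1633 CPM in G2M RGCs on days 1 to 4. Its phases did not overlap, and even its lowest G1 day was above 200 CPM.

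In G1 ENs 43 of the 58 genes were under 5% of their level in G2M RGCs, and 6 were at 20% or more. Those 6 were Cbx5 at 54.4%, Anp32e at 47.01%, the ubiquitin ligase G2e3 at 38.4%, the condensin subunit Ncapd2 at 27.4%, the microtubule polymerase Ckap5 at 26.7% and the nuclear lamina protein Tmpo at 20.6%. Only 4 ENs were called G2M and 2 were called S, too few for a level by day. Per kilobase of merged exon, which allows genes to be compared with each other, Kpna2, a nuclear import receptor, was highest in G2M RGCs at 791 CPM per kilobase, followed by Pbk, a mitotic kinase, at 583.3, Cks2, another Cdk-binding protein, at 555.2 and Hmgb2 at 530.6. In G2M IPCs Pbk led at 613.5 CPM per kilobase and Kpna2 was at 448.99.

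**Figure D1:**
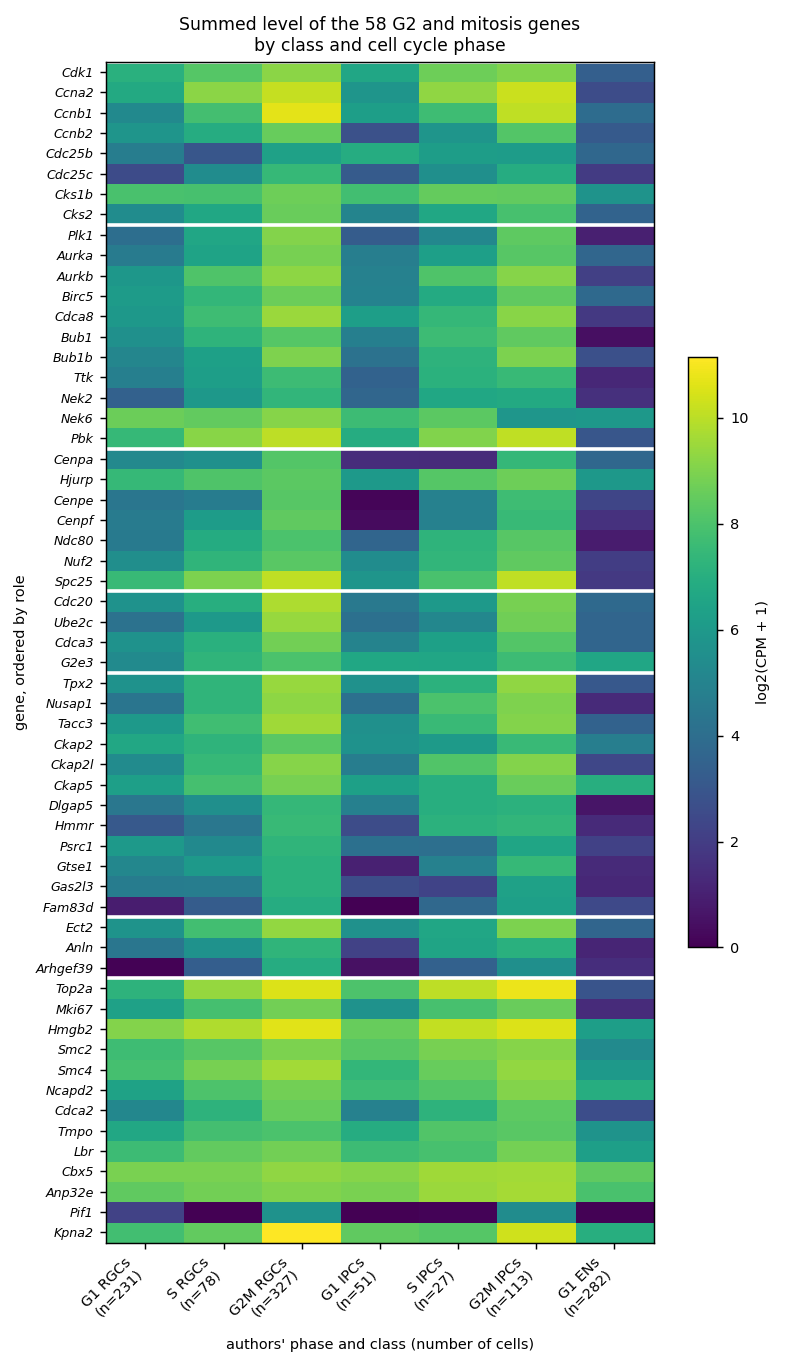
Heat map of the 58 genes (rows, grouped by role) by class and phase (columns), coloured by log2 of pooled CPM plus 1. The G2M columns of RGCs and IPCs are the brightest for nearly all genes, the G1 EN column the darkest, and Nek6 is bright in all RGC columns but dim in G2M IPCs.

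The submitters' clusters divide the cycling progenitors further. Cluster 3, 11.2% of all cells, was called G2M throughout, and 97.6% of it are RGCs. Cluster 0, 20.3% of all cells, was 80.5% G2M, all RGCs, and cluster 4, 10.6% of all cells, was 88.98% G2M, of which 99.05% are IPCs. Clusters were formed from expression, so the differences between them are descriptions, and cluster 3 had enough cells on days 3 and 4 only. The summed level of the 58 genes was 21609 CPM in cluster 0, 44291 CPM in cluster 3 and 26349 CPM in cluster 4. The sums by day, 17509 to 23838, 43370 to 45922 and 24625 to 28867 CPM, left cluster 3 apart from both. The median counts per cell were 296219, 285872 and 367539.

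Of the 58 genes, 51 were highest in cluster 3 and 7 in cluster 4, namely Tmpo, Cbx5, Pbk, Ncapd2, Smc2, Anp32e and Ndc80. Between clusters 3 and 0 the median fold was 2.13, with 33 genes at 2 or more, and only Tmpo (0.737) and Cbx5 (0.865) were lower in cluster 3. With G2M cells alone the median fold was 1.91 and 26 genes were at 2 or more. Cluster 3 was higher than cluster 4 by at least 2-fold for 24 genes, and the median ratio of cluster 4 to cluster 3 was 0.589. Cluster 4 was above cluster 0 for 52 genes, by a median fold of 1.22.

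Cdc20, Kpna2 and Ube2c were among the genes that separated clusters 3 and 0 the most. Cdc20 was at 401.02, 294.2, 277.5 and 352.9 CPM in cluster 0 on days 1 to 4, at 1805 and 1946 CPM in cluster 3 on days 3 and 4, and at 375.8, 646.7 and 414.6 CPM in cluster 4 on days 2 to 4. All cluster 3 days were above all days of the others, and clusters 0 and 4 overlapped over all phases. Kpna2 was at 357.6, 674.1, 1216 and 1079 CPM in cluster 0, at 4007 and 4889 CPM in cluster 3, and at 682.5, 1775 and 1139 CPM in cluster 4 on the same days. It gave the same order, with cluster 3 apart. Ube2c was at 241.2, 582.1, 293.3 and 301.05 CPM, then 1205 and 1279 CPM, then 461.8, 473.1 and 353.8 CPM, again with cluster 3 apart and the other clusters overlapping. Pooled folds between clusters 3 and 0 were 5.63 for Cdc20, 4.27 for Kpna2, 3.85 for Ube2c, 4.24 for Ccnb1, 4.45 for Hmmr, a microtubule-binding receptor of hyaluronan, and 3.90 for Cenpa. Pif1, a DNA helicase, had the highest fold, 9.69, at low levels of 12.1 and 117.02 CPM. By role the median fold was 3.03 for ubiquitin ligase genes, 2.69 for cytokinesis, 2.53 for the Cdk1 group and 2.42 for the spindle.

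The 13 genes of chromosomes, nuclear envelope and nuclear transport had the lowest median fold of the 7 groups between clusters 3 and 0, at 1.28. Their range was wide, from 0.737 for Tmpo to 9.69 for Pif1, and Kpna2 at 4.27 also belongs to this group. Mki67, the Ki-67 protein that coats mitotic chromosomes, had a fold of 1.27, the condensin subunit Smc2 one of 1.14, the lamin B receptor Lbr one of 1.05, and Top2a one of 1.59. Tmpo was at 412.8, 495.2, 284.7 and 188.4 CPM in cluster 0 on days 1 to 4, at 184.8 and 215.2 CPM in cluster 3 on days 3 and 4, and at 434.1, 303.1 and 251.4 CPM in cluster 4 on days 2 to 4. Clusters 0 and 3 overlapped, since day 4 of cluster 0 lay between the days of cluster 3. The summed level of a list of S phase genes ran the other way, with 11904 CPM in cluster 0, 5004 CPM in cluster 3 and 14900 CPM in cluster 4. What share of the differences between these clusters goes with position in the cycle was not tested.

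**Figure D2:**
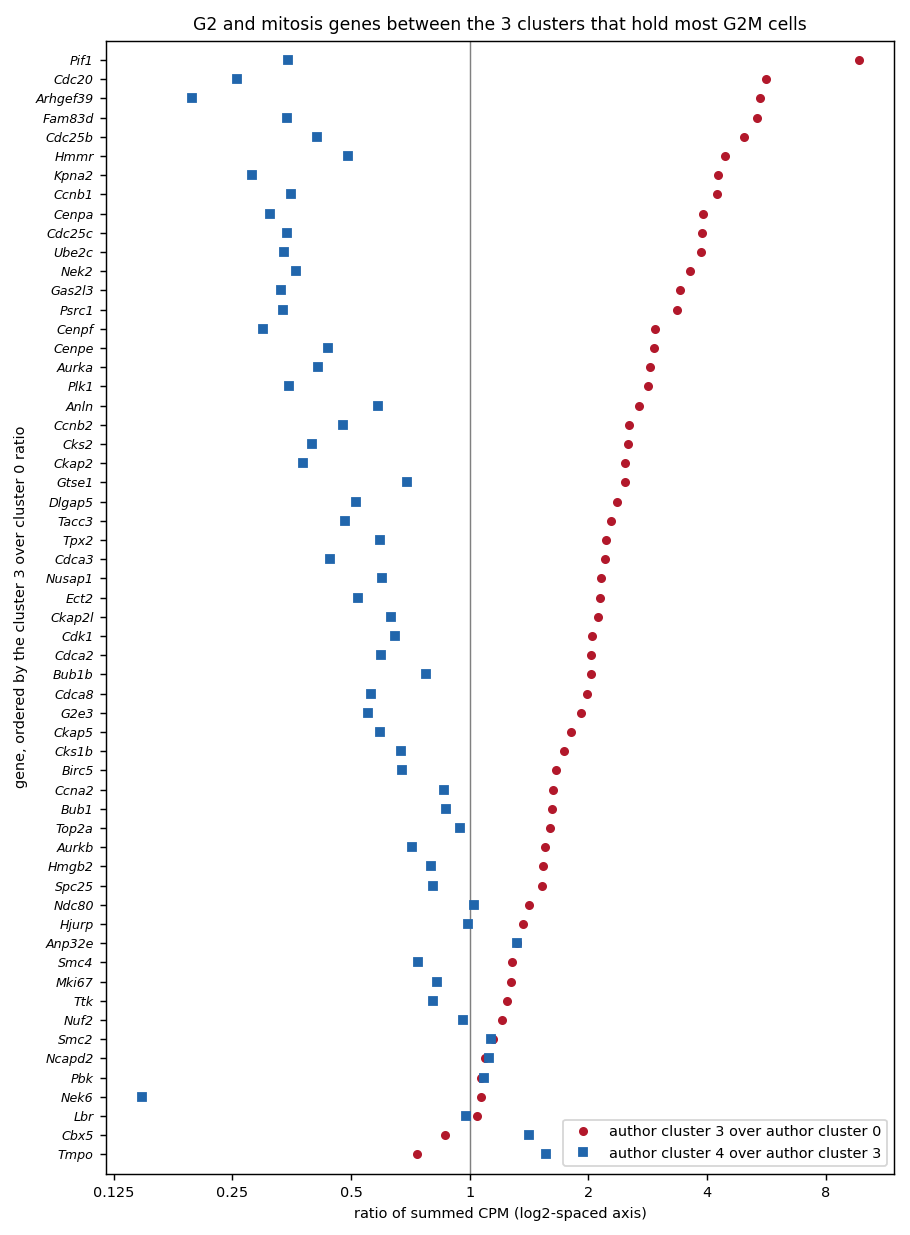
Ratio of pooled CPM of cluster 3 to cluster 0 and of cluster 4 to cluster 3 for each of the 58 genes. The axis is log2-spaced, and genes are ordered by the ratio of cluster 3 to cluster 0. For cluster 3 over cluster 0, Pif1 and Cdc20 lie farthest to the right, and only Tmpo and Cbx5 lie left of the line of equal levels.

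Within the G2M progenitors of at least 50000 counts, which are 36.95% of the 1115 cells, the genes also differed in how closely they followed the others. The correlation of each gene with the mean of the other members over these cells was 0.64 for Ube2c, 0.61 for Cks2 and for Kpna2, 0.60 for Ccnb1 and 0.56 for Cdc20. It was lowest for Tmpo at 0.15, Cbx5 and Nek6 at 0.18, Cdc25b at 0.24 and Lbr at 0.25. The cells share days, plates and depth, so these values describe the libraries only.

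The comparison of G2M IPCs with G2M RGCs asks whether the 2 progenitor classes carry these transcripts at different levels in the same phase. No member passed the test, and the median of the 58 log2 ratios was near 0, with Nek6 and Arhgef39 lower in IPCs on every day and Top2a and Anp32e higher on every day. In edgeR's quasi-likelihood test of counts summed per day, with sort day as a block and Benjamini-Hochberg adjustment at 0.05, 31 of 10269 genes (0.302%) were called and 0 of the 58. At an unadjusted p under 0.05 there were 11 members, 2 higher and 9 lower in IPCs, where 883 of all genes (8.6%) passed, 3.54% higher and 5.05% lower, and the adjusted p of the members ran from 0.378 to 0.996. The 58 log2 ratios of IPCs to RGCs had a median of -0.08 and ran from -4.35 to 0.72, with 24 above 0 and 34 below, beside a median of -0.20 over all genes tested. The days of the groups did not overlap for 5 members, Top2a and Anp32e on the higher side and Nek6, Arhgef39 and Ube2c on the lower side, and for 9.01% of all genes, 3.68% on the higher and 5.33% on the lower side. The sign was the same on every day for 15 members and for 23.7% of all genes. The cells per day were 5, 13, 36 and 59 IPCs, and RGCs numbered 10 and 28 on days 1 and 2 and more on days 3 and 4. The summed level of EN markers was 121.6 to 260.5 CPM by day in G2M RGCs and 2872 to 3321 CPM in G2M IPCs, and its part in the values of the 58 genes was not tested. On day 2 the median counts per cell were 1180200 in IPCs and 136935 in RGCs, and the part of depth in the day 2 values was not tested. The classes also differed in sorted group, since nearly all G2M RGCs but a smaller share of G2M IPCs were Hes5_GFP cells. With Hes5_GFP cells only, which also leaves out day 1, edgeR called 0 members and 0.225% of all genes. In that run 17 members had an unadjusted p under 0.05, and the median log2 ratio of the members was -0.19. The part of sorted group in the values over both groups was not tested.

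Nek6, a NIMA-related kinase that works in spindle formation, differed the most. It was at 0, 15.1, 86.6 and 75.9 CPM in G2M IPCs and at 324.1, 357.9, 552.7 and 629.4 CPM in G2M RGCs on days 1 to 4. Every RGC day lay above every IPC day. The means were 44.4 ± 43.2 CPM and 466.02 ± 148.4 CPM (SD, n = 4 days each), and edgeR's quasi-likelihood test gave a log2 ratio of -4.35 ± 1.24 (SE) with a Benjamini-Hochberg adjusted p of 0.396, which misses the threshold. DESeq2, which called 7.61% of all genes, called Nek6 alone of the 58, with an adjusted p of 0.000218, and over all settings of this comparison the adjusted p ran from there to 0.878. Because day 1 IPCs had no count, the fitted ratio depends on the prior count.

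The phases of Nek6 also ran differently in the classes. In RGCs it was at 452.9, 186.8, 384.2 and 416.02 CPM in G1 and at 161.97, 295.3, 369.99 and 477.9 CPM in S on days 1 to 4, so its phases overlapped each other. In IPCs it was at 296.8, 159.1 and 204.7 CPM in G1 on days 1, 3 and 4 and at 333.3 and 243.1 CPM in S on days 3 and 4. All of these lay above all G2M IPC days. Thinned to 50000 counts per cell, Nek6 had a count in 87.5% of G2M RGCs (95% exact binomial interval 83.2 to 90.97) and 27.5% of G2M IPCs (19.4 to 36.9), with 24 and 4 shallower cells left out. The unthinned shares were 89.6% and 35.4%. In G1 ENs the thinned share was 16.1% (11.7 to 21.4), at a median of 239069 counts per cell. These intervals cover counting error only. Exons of Nek6, which lies at chr2:38511643-38594606 on the plus strand, overlap those of Psmb7, a proteasome subunit.

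Arhgef39, a guanine nucleotide exchange factor, was at 56.5, 71.1, 32.3 and 35.2 CPM in G2M IPCs and at 95.2, 104.2, 119.6 and 119.98 CPM in G2M RGCs on days 1 to 4. The days did not overlap, with a log2 ratio of -1.24 ± 0.49 (edgeR, Benjamini-Hochberg adjusted p 0.556). Ube2c was at 490.1, 376.9, 525.98 and 377.9 CPM in IPCs and at 559.05, 707.7, 768 and 643.7 CPM in RGCs, likewise without overlap, with a log2 ratio of -0.60 ± 0.18 (edgeR, adjusted p 0.407). Plk1 was at 209.2, 225.4, 481.2 and 331.3 CPM in IPCs and at 447.1, 538.1, 609.6 and 477.4 CPM in RGCs. It was lower in IPCs on each day although the ranges overlapped, with a log2 ratio of -0.80 ± 0.22 (edgeR, adjusted p 0.378). Cdca3, a protein of the ubiquitin pathway at mitotic entry, averaged 254.8 ± 105.1 CPM in IPCs and 428.4 ± 67.4 CPM in RGCs (SD, n = 4 days each). Its ranges overlapped through day 3 of the IPCs, and its log2 ratio was -0.84 ± 0.25 (edgeR, adjusted p 0.418). Cenpf was at 233.2, 124.5, 285.5 and 146.2 CPM in IPCs and at 317.7, 265.2, 373.2 and 340.3 CPM in RGCs, lower on each day with overlapping ranges, and had a log2 ratio of -0.79 ± 0.25 (edgeR, adjusted p 0.452).

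On the other side, Top2a was at 1817, 1714, 1770 and 1966 CPM in G2M IPCs and at 910, 1392, 1524 and 1611 CPM in G2M RGCs on days 1 to 4. All IPC days were above all RGC days, with a log2 ratio of 0.45 ± 0.16 (edgeR, adjusted p 0.514). Anp32e was at 657.1, 795, 823 and 796 CPM in IPCs and at 630.7, 500.4, 578.6 and 454.7 CPM in RGCs. These too did not overlap, though day 1 nearly met, and the log2 ratio was 0.51 ± 0.17 (edgeR, adjusted p 0.489). Gtse1, a microtubule-tip protein of G2, had the highest fitted ratio of the members, 0.72 ± 0.44 on the log2 scale (edgeR, adjusted p 0.754), from 329.6, 201.97, 187.3 and 120.6 CPM in IPCs and 76.2, 118.6, 149.6 and 143.1 CPM in RGCs. Days 1 to 3 were higher in IPCs and day 4 lower. Ndc80, which binds microtubules at the kinetochore, and the condensin subunit Smc2 had log2 ratios of 0.47 ± 0.32 and 0.49 ± 0.38 (edgeR, adjusted p 0.790 and 0.823), and each was higher in IPCs on some days only. Ccnb1, with 923, 746, 1584 and 1057 CPM in IPCs, was below its RGC values on days 2 to 4 and above on day 1, with a log2 ratio of -0.29 ± 0.15 (edgeR, adjusted p 0.682).

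Other genes of division, listed by name with earlier results of these cells known, were counted in the same way. None of 81 further mitotic genes passed in this comparison by edgeR, where 0.302% of all genes did. Of the 81, 8 (9.88%) had an unadjusted p under 0.05 by edgeR, close to the 8.6% of all genes. Of 24 S phase genes 1 passed, Rrm2, a subunit of ribonucleotide reductase, at 1987, 2598, 3877 and 4341 CPM in G2M IPCs and 696.2, 905, 1434 and 1738 CPM in G2M RGCs. Every IPC day was above every RGC day for Rrm2, with a log2 ratio of 1.45 ± 0.10 (edgeR, Benjamini-Hochberg adjusted p 0.0117). The summed level of the S phase list was 13352 CPM in G2M IPCs and 8795 CPM in G2M RGCs, and the part of an uneven position within G2M in the values of the 58 genes was not tested.

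**Figure D3:**
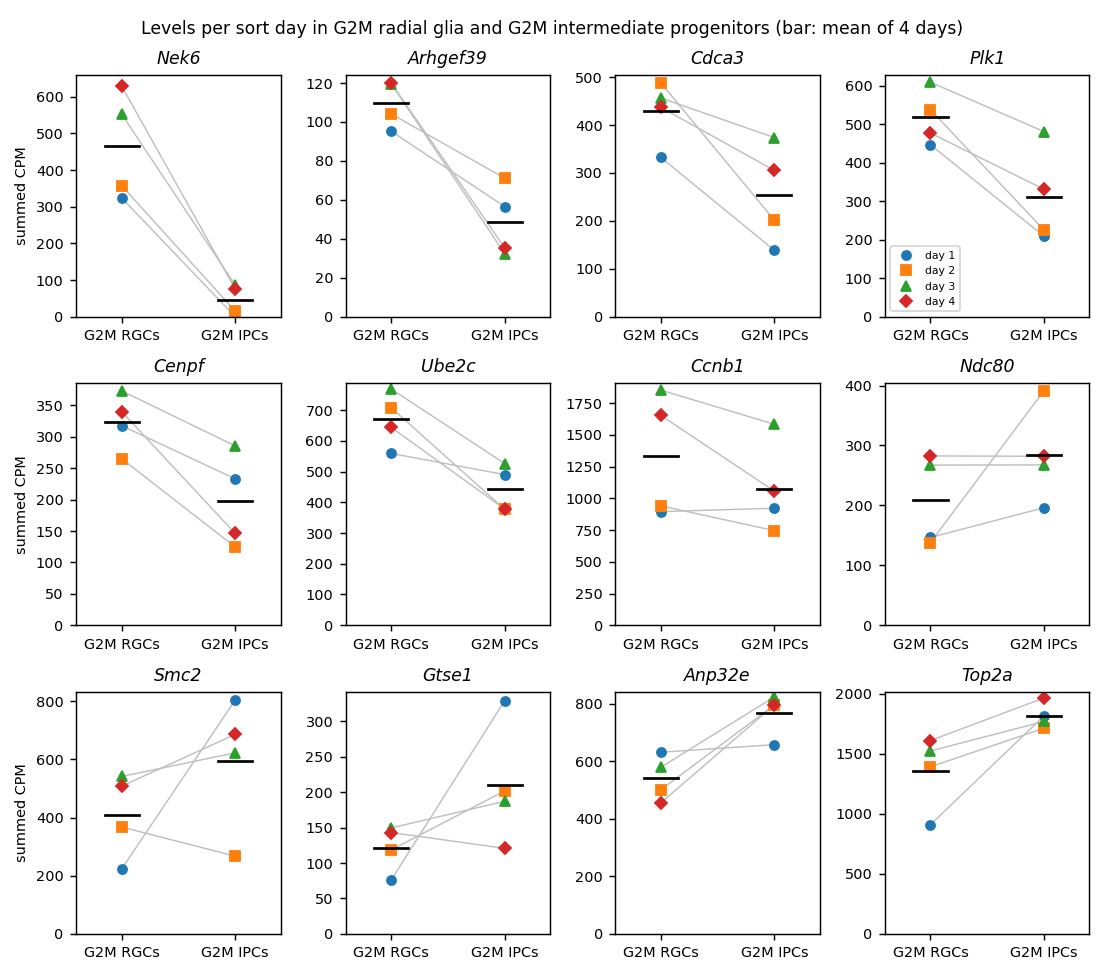
CPM of 12 members in G2M IPCs and G2M RGCs, one point per sort day and a bar at the mean over 4 days. Nek6, Arhgef39 and Ube2c have all IPC points below all RGC points, and Top2a and Anp32e have them all above.

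The G2M RGCs of that comparison were drawn from cluster 0 (55.7%) and cluster 3 (37.3%), whereas 92.04% of the G2M IPCs were in cluster 4. With cluster 4 set against cluster 3 alone, on days 3 and 4, the same edgeR fit put 1.54% of all genes under its threshold, 0.753% on the lower side. Of the 58, 9 were under it, all lower in cluster 4, namely Arhgef39, Ccnb1, Cdc20, Cenpa, Cks2, Nek6, Plk1, Psrc1 and Ube2c. Both clusters were formed from expression in these cells, so the count is a description. Among them the log2 ratio was -2.91 for Nek6, -2.74 for Arhgef39, -1.50 for Ube2c, -1.35 for Ccnb1 and -1.17 for Plk1. Top2a, at -0.12, was no longer on the IPC side. Nek6 was also lower in cluster 4 than in cluster 0, with pooled levels of 82.7 CPM in cluster 4, 526.2 CPM in cluster 0 and 560.6 CPM in cluster 3. By day Nek6 was at 301.1, 391.9, 517.7 and 601.6 CPM in cluster 0 and at 52.5, 107.1 and 92.8 CPM in cluster 4 on days 2 to 4, without overlap.

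The sorted groups are the contrast that the labels set, by a GFP reporter of Hes5 and not by transcripts of the 58 genes. Over all cells the 58 genes were higher in Hes5_GFP than in CAG_mRFP in the fitted values, with a median log2 ratio of 1.20 and a range from 0.16 to 2.36, where all genes tested had a median of 0.15. None of the 58 passed. The edgeR test on 4 days called 42 of 10517 genes (0.399%), and 24 members, all higher in Hes5_GFP, had an unadjusted p under 0.05, beside 13.6% of all genes and 7.58% on that side. The adjusted p of the members ran from 0.108 to 0.860. Without day 1 the test called 27 members and 2.43% of all genes, with DESeq2 19 members and 1163 genes (11.1%), and without day 2, 3 or 4 it called 0 members. The days of the groups did not overlap for 4 members, Tmpo, Cks1b, Bub1 and Hmmr, all higher in Hes5_GFP, against 9.63% of all genes and 5.79% on that side.

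Day 1 ran against the other days. Cenpf was at 60.8, 153.04, 224.2 and 194.9 CPM in Hes5_GFP and at 88.7, 8.12, 32.5 and 33.9 CPM in CAG_mRFP on days 1 to 4. Plk1 was at 73, 309.6, 344.6 and 280.2 CPM and at 134.1, 6.33, 107.9 and 50.5 CPM, and Top2a at 290.7, 1188, 1064 and 1156 CPM and at 486.3, 444.1, 345.9 and 354.4 CPM. In each of the 3 genes CAG_mRFP was the higher group on day 1 and Hes5_GFP by far the higher on days 2 to 4. The members higher in Hes5_GFP numbered 11, 56, 58 and 58 on the 4 days, with median log2 ratios of -0.72, 1.59, 1.60 and 1.72. The share of cells called G2M was 15.4%, 65.5%, 49.1% and 54.2% in Hes5_GFP and 45.8%, 26.1%, 11.9% and 17.7% in CAG_mRFP. Phase was called from transcripts of these same cells, so these shares are not independent of the levels, and their part was not tested. Day 1 had 26 and 24 cells.

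The groups also differed in class. RGCs were 77.2% of Hes5_GFP and 18.8% of CAG_mRFP cells, and ENs, which hardly hold these transcripts, were 6.16% and 63.3%. In a sum over cells, a smaller number of cycling cells and less RNA per cycling cell cannot be told apart. On days 3 and 4 each plate held 1 sorted group, so that plate and group cannot be told apart there. The highest fitted log2 ratios were those of Cenpf, 2.36 ± 0.82, Pif1, 2.33, and Plk1, 2.14. The lowest were those of Anp32e, 0.16, Cbx5, 0.28, Ncapd2, 0.36, and G2e3, 0.39. The part of class in these ratios was not tested.

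**Figure D4:**
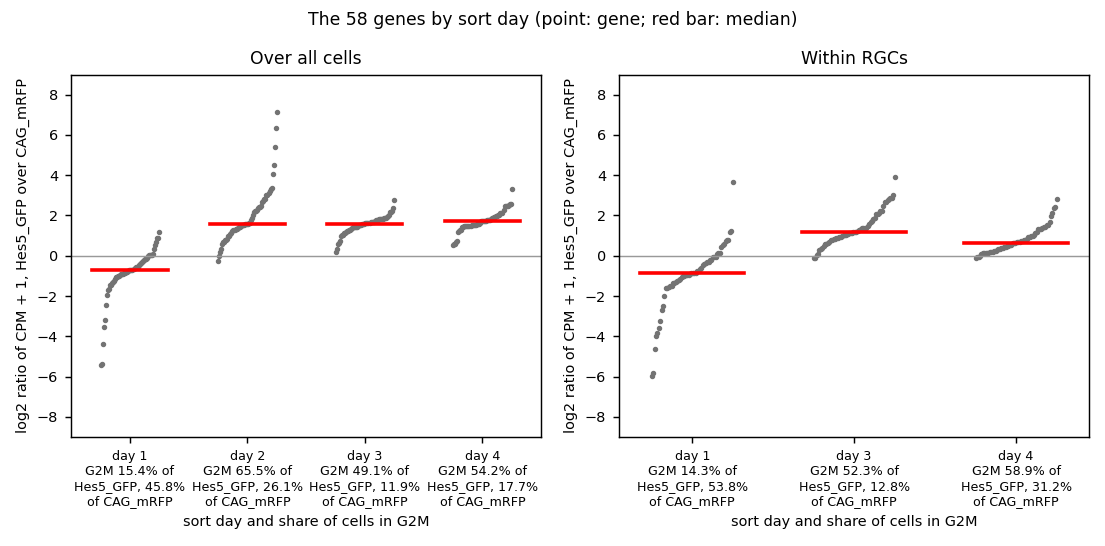
Log2 ratio of Hes5_GFP to CAG_mRFP for each of the 58 genes by sort day, over all cells and within RGCs, with the share of G2M cells in each group printed per day. Most points lie below 0 on day 1 and above 0 on the later days, and the G2M shares change order in the same way. The shares rest on phases called from transcripts of the same cells, so they are not independent of the points.

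Within RGCs, where days 1, 3 and 4 had enough cells, the edgeR test called 0 of 10405 genes (0%), with 2.04% of all genes and 3 members at an unadjusted p under 0.05, and DESeq2 called 1.23% of all genes and no member. The days did not overlap for 2 members and for 12.8% of all genes. The median log2 ratio of the 58 genes was 0.40, close to the 0.39 of all genes tested. By day the members higher in Hes5_GFP were 12, 56 and 55, with medians of -0.85, 1.19 and 0.66. The G2M share of RGCs was 14.3%, 52.3% and 58.9% in Hes5_GFP and 53.8%, 12.8% and 31.2% in CAG_mRFP on these days, with 13, 39 and 16 CAG_mRFP cells. The day counts turned with the G2M shares, which were called from transcripts of these same cells and whose part was not tested. Without day 1 the median was 1.01, without day 3 it was -0.08, and without day 4 it was 0.11, so the direction rests on single days. The lowest fitted ratios were those of Fam83d, a spindle protein, at -0.44, and Ttk at -0.36, and the highest those of Pif1 at 2.32 and Gas2l3, a cytoskeletal linker, at 1.78, none past the threshold. The direction of the lowest did not hold, since Fam83d was at 0.39 and Ttk at 0.27 without the replicate block, and over the days left out in turn they ran from -3.05 to 1.33 and from -1.78 to 1.01.

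Within IPCs, on days 3 and 4, edgeR called 0 of 9903 genes (0%), with 2.78% of all genes and 2 members at an unadjusted p under 0.05. The median log2 ratio of Hes5_GFP to CAG_mRFP was -0.08 over the members and 0.09 over all genes. The days did not overlap for 17 members, 13 of them lower in Hes5_GFP, where 32.7% of all genes did not overlap and 13.5% were lower. The kinetochore motor Cenpe, at -0.77, and Dlgap5, a spindle assembly factor, at -0.97, were called with DESeq2, as were 4.33% of all genes, but not with edgeR. The G2M share of IPCs was 54.8% and 54.7% in Hes5_GFP and 52% and 75% in CAG_mRFP.

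Within G2M progenitors of both classes, on days 2 to 4, edgeR called 0 of 10183 genes (0%), with 2.6% of all genes, 1.68% on the higher side, and 3 members, all higher in Hes5_GFP, at an unadjusted p under 0.05, and DESeq2 called 0.992% of all genes and no member. The days did not overlap for 6 members and for 15% of all genes. The members had a median log2 ratio of 0.21 and all genes one of 0.50. The members higher in Hes5_GFP numbered 40, 24 and 34 of 58 on the 3 days. Over all days, most G2M progenitors of Hes5_GFP were RGCs, whereas most of those of CAG_mRFP were IPCs. Sorted group and class therefore differ together in this comparison, and the part of class in its ratios was not tested. Cenpf was at 219.5, 365.8 and 302.9 CPM in Hes5_GFP and at 26.1, 197.3 and 133.7 CPM in CAG_mRFP on days 2 to 4, without overlap, and had a log2 ratio of 1.69 ± 0.53. Its day 2 value in CAG_mRFP rests on 5 cells. Aurka and Cdc25c had log2 ratios of 1.63 and 1.45, and Anp32e and Ttk of -0.49 and -0.42. Cdc25c was at -0.076 without day 2, the day with 5 CAG_mRFP cells. Without day 2 the median of the 58 was -0.00.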

How the data were processed

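Each gene has an estimated count per cell, deposited by the authors as whole numbers in a table of 16839 genes and 1115 cells. HISAT2, Seurat 2 and build mm10 are named in the submitters' processing notes, with no roles given. A second deposited table holds the natural log of 1 plus depth-scaled counts by the authors, in which 2.71% of nonzero entries were not whole against the counts (tolerance 0.01), and per the labels the share of mitochondrial counts is a fraction. Full-length counts grow with transcript length, so levels are compared between genes only per kilobase.

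Counts were summed per sort day and group and tested in R 4.3.3 with edgeR 4.0.16 (quasi-likelihood, total counts as library size, sort day as block). A gene needed 5 CPM in either group, which all 58 members reached in each test, and Benjamini-Hochberg adjusted p under 0.05 was called. A day needed 5 cells per class and phase, or 10 per sorted group. Within G2M progenitors it needed only 5 per sorted group. DESeq2 1.42.0, limma 3.58.1 on log2 of the mean per-cell CPM plus 1, TMM factors, no filter and leaving out days were alternatives. Sort day comes from the labels and pairs the groups, with correlations of same-day deviations from the group means of 0.0728 to 0.234 for G2M IPCs against RGCs and of 0.114 to 0.321 for the sorted groups over all cells. The edgeR and DESeq2 steps were run on simulated counts without day effects. This covered G2M IPCs against G2M RGCs and the sorted groups over all cells and within RGCs. The share of simulated differences recovered is not reported here, so it does not show which differences the tests could miss. The genes named are known regulators of each role, members past the test and members with the 5 highest and 5 lowest fitted ratios. All of these extremes are named for G2M IPCs against G2M RGCs, and only some of them in the comparisons of sorted groups. Others, Nusap1, Ect2, Hmmr, Ckap5 and G2e3 among them, were named after their values were seen. The members, roles and lists were chosen with earlier results of these data known. Doublets were not treated, and no cell was left out by depth except where stated.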

Additional observations from a re-analysis of the deposited data

Results flagged for a closer look

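Among 50 sets of 4 day values examined for a day far from the others, 3 held one, and chance alone gives about 1 in 20. Anp32e in G2M IPCs was lower on day 1, at 657.1 CPM, than on days 2 to 4 at 795, 823 and 796 CPM. Anp32e over all Hes5_GFP cells was higher on day 2, at 585.6 CPM, than on the other days. Top2a over all Hes5_GFP cells was lower on day 1, at 290.7 CPM, than on days 2 to 4 at 1188, 1064 and 1156 CPM, the day on which 15.4% of these cells were called G2M.

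Tpx2, Ckap2, Ckap5 and Tmpo were higher in Hes5_GFP on all 3 days within RGCs and lower on both days within IPCs. The log2 ratios were 0.99 and -0.16 for Tpx2, 1.09 and -0.24 for Ckap2, a spindle protein, 0.56 and -0.22 for Ckap5, and 0.53 and -0.41 for Tmpo, within RGCs and IPCs in that order. These genes came from a scan of all 58 members for opposite signs, and the share of all genes with that pattern was not computed. The number found is therefore not a result about the members. The difference between the classes was not tested.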

How the results depend on the processing

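Depth, cells per day and the few days limit these tests. Every comparison keeps a count of 0 members past the test with TMM factors, without the filter on low values, with cells of at least 50000 counts only, and, chosen after seeing the data, without the shallow plate. Leaving out cluster 7, also chosen after seeing the data, was run for G2M IPCs against RGCs, within RGCs and within G2M progenitors, with 0 members past the test in each. Within RGCs it also removes day 1 and within G2M progenitors day 2, since too few cells remain, so there it changes the days as well as the cells. For G2M IPCs against RGCs, where 0.302% of genes passed, DESeq2 called 7.61% with 1 member, Nek6, limma 0.964%, and leaving out a day gave 0.00972% to 0.332%. Cluster 4 against cluster 3, a description since both were formed from expression in these cells, gave 1.54% with 9 members. For sorted groups over all cells, where 0.399% of genes passed, DESeq2 called 11.1% with 19 members, limma 3.85% with 4, and leaving out a day 0% to 2.43% and 0 to 27 members. In that comparison 42 genes passed with the filter and 75 without. Without the replicate block, that is without sort day, 0.487% and 0.171% of genes passed in these comparisons and 0 members, and the block changed no other count of calls. Within RGCs DESeq2 called 1.23% of genes and the test without a filter 0.00613%. Within IPCs DESeq2 called 4.33% with 2 members and limma 0.0808%, and leaving out 1 of the 2 days was not run because 1 day remains. Within G2M progenitors DESeq2 called 0.992%, leaving out a day 0% to 0.0197% and leaving out cluster 7 and day 2 0.0197%, as did leaving out day 2 alone.

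These log2 ratios changed sign, and the cause was not tested. With cluster 4 against cluster 3 they were -0.12 for Top2a, -0.23 for Ndc80 and -0.58 for Gtse1. Within RGCs, Fam83d went from -0.44 to 0.39 without the replicate block, 1.09 without cluster 7 and day 1, and -3.05 to 1.33 over days left out. Ttk went from -0.36 to 0.27, 0.82 and -1.78 to 1.01 in the same order and to 0.073 with limma, and Cenpa from -0.22 to 0.097, 0.59, -0.72 to 0.31, and 0.17. Cks1b went from -0.28 to 0.29 without cluster 7 and day 1 and -0.55 to 0.059 over days left out, Anp32e from -0.21 to 0.15 with limma, and Cenpe from 1.60 to -0.76 without day 3, -0.014 without day 4 and 3.22 without day 1. Within IPCs limma gave -0.17 for Pif1 and -0.091 for Anln. Within G2M progenitors Bub1 went from -0.24 to 0.054 without day 3 and -0.67 without day 4, and Cdc25c from 1.45 to -0.076 without day 2, 4.01 without day 3 and -0.077 without cluster 7 and day 2.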
